A study of Mus musculus with 30 samples.

Results

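Ighv5-1 is a pseudogene of the Ighv5 family and the V segment that lies nearest to the D segments of the mouse antibody heavy-chain locus, Igh. Its joins were the junctions on chromosome 12 within 100 bp of positions 114830805 to 114831098 of the alignment target, a 129 Igh sequence (AJ851868) combined with mm9. There were 23653 such joins among 1139295 junctions of 18 bone marrow libraries, and Ighv5-1 was 1 of 151 V and 21 D segments found on that target. The libraries were made by HTGTS-V(D)J-seq, in which genomic DNA is amplified outward from a bait at JH4 and the sequence joined to it is read. The cells were pro-B cells of 129SV mice, sorted as B220+, IgM- and CD43+, with 3 libraries for each of 6 genotypes: CBE12mut (labelled CBE1&2-/-), CBE1mut (CBE1-/-), CBE1inv (CBE1inv/inv), CBE2mut (CBE2-/-), CBE2inv (CBE2inv/inv) and WT. CBE1 and CBE2 are the pair of CTCF-binding elements of IGCR1, the intergenic control region between V and D. The labels do not say whether the 3 libraries of a genotype came from separate mice, so the p-values refer to the spread between libraries. In the limma fits this spread is shared over the 6 genotypes and moderated over all fitted segments, so it is not that of Ighv5-1 alone.

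A heavy-chain gene is built in steps: the RAG endonuclease first joins a D to a JH segment and then a V segment to the DJH product. RAG bound at the JH end scans along chromatin that cohesin reels past it, and IGCR1 is known to stop this scanning before it reaches the V segments. When IGCR1 is lost, the V segments closest to D are used far more. Ighv5-2 (VH81X), the next V segment, is the functional V best known for this behaviour, and a CTCF-binding element lies just past its recombination signal. Ighv5-1 is known for a counterpart of that element that does not work.

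On the target, 5278 bp separated Ighv5-1 from Ighv5-2 and 96238 bp separated it from Ighd1-1 (DFL16.1), the D next to IGCR1. The JH4 bait ended 159681 bp away. In the C57BL/6 genome (NCBIM37, mm9) the same segment was found by sequence at chr12:114811138-114811431 on the minus strand, on the D side of Ighv2-1. The mm9 gene annotation used here has no entry there, and the reads of the 129 libraries matched mm9 at 292 of 294 bases. The stretch is shown because it holds 1 in-frame stop codon, in capitals, at base 176 of 294, where the same reading of Ighv5-2 has 0.
Ighv5-1 exon: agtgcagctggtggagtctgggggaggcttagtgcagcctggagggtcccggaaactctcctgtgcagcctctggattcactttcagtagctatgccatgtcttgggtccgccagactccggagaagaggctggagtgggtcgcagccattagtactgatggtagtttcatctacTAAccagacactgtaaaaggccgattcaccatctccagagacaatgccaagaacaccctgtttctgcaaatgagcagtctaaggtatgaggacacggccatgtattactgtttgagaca

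The next pair of sequences shows what RAG and CTCF would meet at the D-side end of each segment. Both begin with the last 11 coding bases, and capitals mark the heptamer and the nonamer of the recombination signal and a stretch of 12 bases that sits 58 bases past the V end in both. They were read from mm9 at chr12:114811057-114811148 for Ighv5-1 and chr12:114816634-114816725 for Ighv5-2, minus strand.
Ighv5-1 signal side: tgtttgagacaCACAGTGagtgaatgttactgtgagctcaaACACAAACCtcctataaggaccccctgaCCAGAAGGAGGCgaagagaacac
Ighv5-2 signal side: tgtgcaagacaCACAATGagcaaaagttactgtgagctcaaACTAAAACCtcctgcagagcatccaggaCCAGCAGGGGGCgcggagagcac

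Ighv5-1 has the heptamer CACAGTG, which is the consensus heptamer and directly follows the V end in 72 of 112 annotated mm9 V segments (64.3%). With positions counted from the 5′ end of each element, Ighv5-2 and Ighv5-1 differ by A5G in the heptamer and by T3A and A4C in the nonamer, and both spacers have 23 bases. In the 12 bases they differ by C5A and G9A. The letters of Ighv5-2, CCAGCAGGGGGC, were searched on both strands within 100 bases past the V end. They occur at 15 of the 112 annotated V segments (13.4%), all of them among the 20 members of the Ighv5 and Ighv2 families, and not at Ighv5-1. A match of letters is a description and no measurement of CTCF. Joins in inverted orientation keep the signal side, and 44 of the 63 such Ighv5-1 reads began with the heptamer. The consensus of these 44 reads in 129 equalled mm9 at 81 of 81 bases. For Ighv5-2 1206 of 2027 inverted reads began with its heptamer, and their consensus equalled mm9 at 81 of 81 bases. Reads with other first bases were left out, so the match within the heptamer was fixed by that choice.

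Reads could be told apart between the 2 segments. Over 294 compared bases Ighv5-1 and Ighv5-2 differ at 46 (84.4% identity), and of 23590 deletional Ighv5-1 reads 23587 were closer to Ighv5-1, 0 were closer to Ighv5-2 and 3 were equal. Libraries held 57970 to 98682 junctions in CBE12mut, CBE1mut, CBE1inv and WT, which read names place on 1 sequencing run, and 11105 to 41433 in CBE2mut and CBE2inv, which came from another run that held no WT. The effects of genotype and of run therefore cannot be told apart in any comparison of CBE2mut or CBE2inv with WT. Read sequences repeat although no line is marked as a duplicate, so binomial intervals cover counting error only.

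Ighv5-1 was joined most often in CBE12mut pro-B cells, followed in order by CBE1mut, CBE1inv, CBE2mut, CBE2inv and WT. Per 100000 junctions, the 3 libraries of CBE12mut held 5965, 6401 and 6322 Ighv5-1 joins, those of CBE1mut 2257, 2463 and 2182, those of CBE1inv 830.2, 822 and 845, and those of CBE2mut 576, 405 and 536. CBE2inv libraries held 346, 251 and 120, against 152, 207 and 146 in WT libraries. Libraries of CBE12mut, CBE1mut, CBE1inv and CBE2mut lay entirely above WT, and those of CBE2inv overlapped WT.

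CBE12mut averaged 6229 ± 232, CBE1mut 2301 ± 146, CBE1inv 832 ± 11.8, CBE2mut 506 ± 89.4, CBE2inv 239 ± 114 and WT 168 ± 33.7 joins per 100000 (SD, n = 3 each). Among 163 segments fitted with limma voom, with all junctions as the library size, Ighv5-1 was higher than WT by 37.8-fold in CBE12mut (95% interval 28.1 to 50.9, adjusted p = 5.26e-34). It was higher by 13.96-fold in CBE1mut (10.2 to 19.0, adjusted p = 1.72e-24) and by 5.06-fold in CBE1inv (3.64 to 7.02, adjusted p = 7.05e-13). CBE2mut gave 3.16-fold (2.12 to 4.72, adjusted p = 8.06e-06). CBE2inv gave 1.44-fold with an interval of 0.915 to 2.26, which did not pass (adjusted p = 0.402). Fitted within the 12 libraries of the run that held WT, the log2 changes were 5.25 for CBE12mut, 3.81 for CBE1mut and 2.35 for CBE1inv, beside 5.24, 3.80 and 2.34 over all 18 libraries.

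Few segments moved this way. Against WT, segments called higher made up 4.29% of those tested for CBE12mut, 2.45% for CBE1mut, 3.07% for CBE1inv, 5.52% for CBE2mut and 2.45% for CBE2inv. Segments called lower made up 89.6% for CBE12mut, 63.8% for CBE1mut, 6.75% for CBE1inv and for CBE2mut, and 3.68% for CBE2inv. By size of the log2 change Ighv5-1 ranked 2 of 163 for CBE12mut and CBE1mut, 3 for CBE1inv and CBE2mut, and 36 for CBE2inv. The median log2 change over the 163 segments was -2.05 in CBE12mut and -1.02 in CBE1mut, where Ighv5-2 alone held 63236 and 46231 of every 100000 junctions, against 3588 in WT. Under median-of-ratios scaling, which moves that median to -0.11 and -0.02, Ighv5-1 rose by 7.21 and 4.81 on the log2 scale. That scaling turned the balance of calls, with 12 segments higher and 5 lower for CBE12mut and 7 higher and 2 lower for CBE1mut, against 7 and 146 and 4 and 104 with all junctions as library size.

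**Figure D1:**
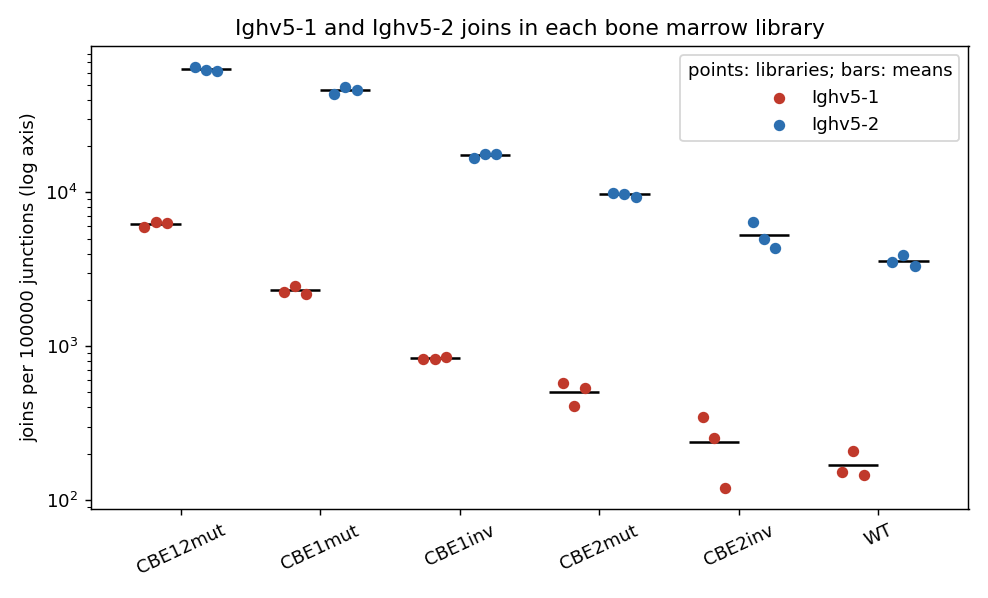
Joins per 100000 junctions (log axis) of Ighv5-1 (red) and Ighv5-2 (blue) in each bone marrow library, with points for the 3 libraries and bars for the mean. Ighv5-1 runs below Ighv5-2 in every library, and its means are 6229 in CBE12mut and 168 in WT.

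The genotypes were also compared with each other. The level in CBE12mut was 2.71 times that in CBE1mut (95% interval 2.34 to 3.14, adjusted p = 4.23e-19, limma voom), and the 6 libraries did not overlap. Of all segments 2.45% were called higher there. Median-of-ratios scaling gave 5.28-fold. CBE1inv held 0.362 of the CBE1mut level (0.295 to 0.444, adjusted p = 2.81e-13), again without overlap, where 3.07% of segments were called lower, and 0.206 of it under median-of-ratios scaling. CBE2inv held 0.455 of the CBE2mut level (0.290 to 0.713, adjusted p = 0.0222), with every CBE2inv library below every CBE2mut library and 1.84% of segments called lower. That last call was lost when only the 6 libraries of that run were fitted (adjusted p = 0.171), and without CBE2inv replicate 2 (0.125), CBE2inv replicate 3 (0.193) or CBE2mut replicate 3 (0.0853). CBE1inv and CBE2mut, which are neighbours in the order of levels, were read on different runs and were not tested against each other.

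Mutation of CBE2 was thus present on 2 backgrounds. Its log2 change was 1.44 with CBE1 mutated (CBE12mut against CBE1mut) and 1.66 with CBE1 intact (CBE2mut against WT). The difference of these changes was -0.22 (95% interval -0.84 to 0.40, adjusted p = 0.694), and 0.40 under median-of-ratios scaling (adjusted p = 0.633), so its direction is not settled. This comparison was chosen after the data were seen, and its second term spans both runs.

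**Figure D2:**
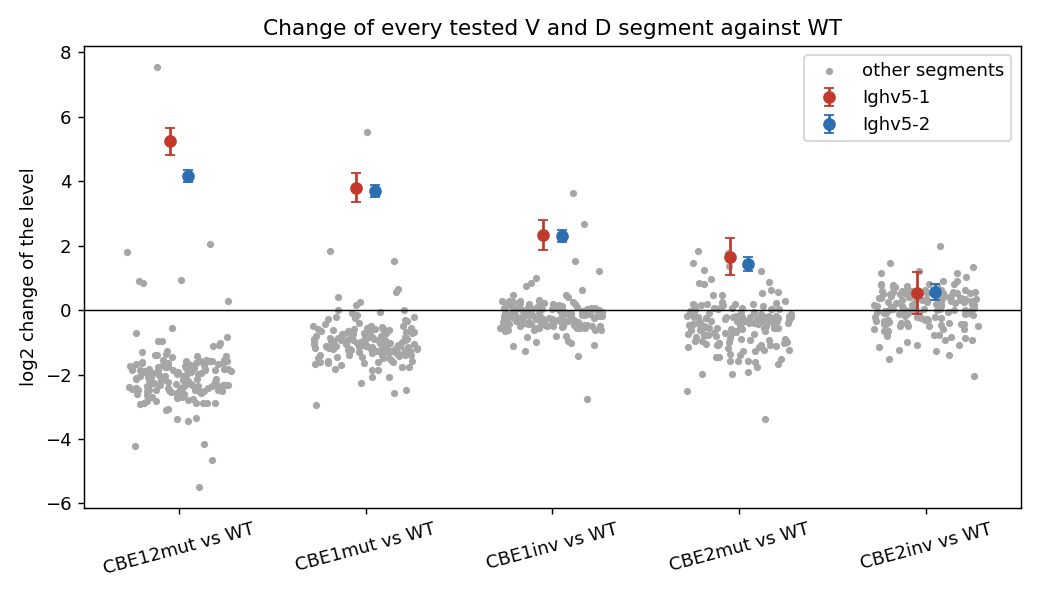
Log2 change of the level against WT for every tested V and D segment in the 5 mutant genotypes (grey points), with Ighv5-1 in red and Ighv5-2 in blue and 95% intervals as bars. Ighv5-1 stands above Ighv5-2 in CBE12mut (5.24 and 4.16), and the pair lies together in the other 4 comparisons.

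As a share of V joins Ighv5-1 kept the same order. It made up 6.94%, 7.48% and 7.65% of V joins in the CBE12mut libraries and 0.423%, 0.600% and 0.493% in the WT libraries. The Wilson 95% interval of the lowest CBE12mut library was 6.75 to 7.14%, and that of the highest WT library was 0.502 to 0.717%. CBE1mut averaged 3.24% ± 0.174, CBE1inv 1.83% ± 0.0572, CBE2mut 1.21% ± 0.233 and CBE2inv 0.604% ± 0.309 (SD, n = 3 each). The lowest library of all was CBE2inv replicate 3 with 19 joins (0.296%, interval 0.189 to 0.461%).

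In a voom fit over the 143 V segments tested, the share was higher than WT by 14.8-fold in CBE12mut (adjusted p = 4.18e-51), 6.54-fold in CBE1mut (8.42e-29), 3.70-fold in CBE1inv (2.97e-15) and 2.49-fold in CBE2mut (1.54e-05). In CBE2inv it was 1.19-fold (interval 0.789 to 1.79, adjusted p = 0.71), and this turned to a log2 change of -0.04 without CBE2inv replicate 1. V segments called higher were 2.1% of those tested for CBE12mut, CBE1mut and CBE1inv alike, 5.59% for CBE2mut and 0.0% for CBE2inv. CBE2inv lay below CBE2mut (0.477-fold, adjusted p = 0.00913, with 2.1% of V segments called lower), a call that was lost without CBE2inv replicate 2 (0.0783), CBE2inv replicate 3 (0.0853) or CBE2mut replicate 3 (0.135).

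The place of Ighv5-1 among V segments changed accordingly. Counted from the most joined of 151 V segments, it ranked 3 in every CBE12mut and CBE1mut library and 3, 4 and 4 in CBE1inv libraries. In CBE2mut libraries it ranked 23, 14 and 8, in CBE2inv libraries 28, 47 and 76, and in WT libraries 66, 51 and 63. In WT pro-B cells the V segment closest to D was thus joined less often than at least 50 others.

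The ratio of Ighv5-1 to Ighv5-2 set the pseudogene against its functional neighbour within each library. For every 100 Ighv5-2 joins there were 9.12, 10.2 and 10.3 Ighv5-1 joins in CBE12mut libraries, against 4.31, 5.28 and 4.396 in WT libraries. CBE1mut libraries had 5.14, 5.12 and 4.68, CBE1inv libraries 4.98, 4.65 and 4.74, CBE2mut libraries 5.78, 4.14 and 5.72, and CBE2inv libraries 5.37, 5.03 and 2.75. The CBE12mut libraries lay above all 15 others, which overlapped one another.

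On log2 counts with a pseudocount of 0.5, a limma trend fit over 142 V segments gave a ratio 2.11-fold above WT in CBE12mut (95% interval 1.57 to 2.84, adjusted p = 4.32e-06). Ighv5-1 was the 1 V segment of these 142 (0.704%) called higher against Ighv5-2, while the other 141 (99.3%) were called lower. The ratio did not pass in CBE1mut (1.07-fold, 0.795 to 1.43, adjusted p = 0.658), CBE1inv (1.03-fold, 0.766 to 1.38, adjusted p = 0.852), CBE2mut (1.11-fold, 0.828 to 1.49, adjusted p = 0.485) or CBE2inv (0.913-fold, 0.680 to 1.23, adjusted p = 0.869). In these 4 genotypes 0.0% of V segments were called higher against Ighv5-2 than in WT, and 99.3%, 96.5%, 88.7% and 1.41% were called lower. D segments were not in this fit, so it does not show whether Ighv5-1 alone gained on Ighv5-2. A D segment closest in sequence to Ighd3-1 held 341 joins per 100000 in CBE12mut, 86.4 in CBE1mut and 3.77 in WT. Ighv5-2 held 63236, 46231 and 3588. The ratio of that D segment to Ighv5-2 was not tested, and its WT level rests on few reads.

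CBE12mut also stood above each of the other mutants in the ratio of Ighv5-1 to Ighv5-2. It was 1.98-fold above CBE1mut (1.47 to 2.66, adjusted p = 0.000115), where again Ighv5-1 was the 1 V segment called higher of 142 (0.704%). In comparisons added after the data were seen, it was 2.06-fold above CBE1inv (adjusted p = 9.48e-06), 1.90-fold above CBE2mut (5.88e-05) and 2.31-fold above CBE2inv (4.66e-07), with 0.704% of V segments called higher in each. The comparisons with CBE2mut and CBE2inv, and the difference given next, span both runs, and there the genotypes cannot be told apart from the runs. The log2 ratio changed by 0.99 with CBE2 mutated on top of CBE1 and by 0.15 with CBE2 mutated alone. The difference of 0.83 (95% interval 0.23 to 1.43) did not pass over 142 segments (adjusted p = 0.354), but did so with 1 join per distinct read outcome (adjusted p = 0.0291) and without CBE2mut replicate 1 (0.0488). CBE1inv and CBE1mut differed by 0.963-fold (0.717 to 1.29) and CBE2inv and CBE2mut by 0.822-fold (0.612 to 1.10), neither past the threshold (adjusted p = 0.798 and 0.204). Without CBE2inv replicate 1 the second of these was called (log2 -0.456, adjusted p = 0.0392), and without CBE2inv replicate 3 it was 0.0132 on the log2 scale.

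**Figure D3:**
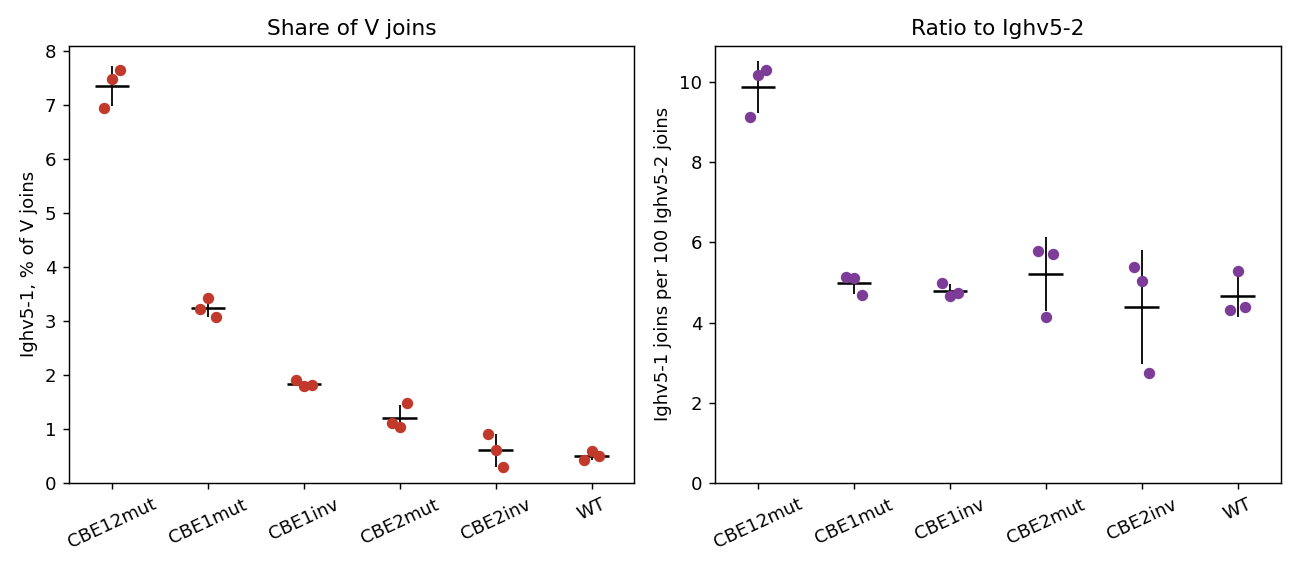
Ighv5-1 as a percentage of V joins (left) and Ighv5-1 joins per 100 Ighv5-2 joins (right) in each library, with mean ± SD of 3 libraries. The share differs in steps between genotypes, and the ratio is 9.86 in CBE12mut and between 4.39 and 5.21 in the other 5 genotypes.

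The ratio was also taken over distinct outcomes, to set aside repeated reads. Distinct read outcomes of Ighv5-1, which differ in position, orientation or inserted bases, numbered 1285, 1168 and 1280 in CBE12mut libraries and 44, 43 and 41 in WT libraries. Per 100 distinct Ighv5-2 outcomes CBE12mut had 9.52 ± 0.360, CBE1mut 5.11 ± 0.234, CBE1inv 4.84 ± 0.296, CBE2mut 5.08 ± 0.433, CBE2inv 3.83 ± 0.378 and WT 4.84 ± 0.217 (SD, n = 3 each). CBE2inv was below CBE2mut in this form (log2 -0.39, limma trend fit, adjusted p = 0.012). This rests on 26, 27 and 11 distinct Ighv5-1 outcomes in CBE2inv libraries and 53, 30 and 50 in CBE2mut libraries. The ratio fit does not weight libraries by these counts. With all reads the comparison did not pass (adjusted p = 0.204), and 0.0% of V segments were called lower in that fit. The share of V segments called lower with distinct outcomes is not given here, so that call stands without its background.

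The neighbours showed where the pseudogene differed from other V segments near D. Ighv5-2 held 63236 ± 2015 joins per 100000 in CBE12mut, 46231 ± 2129 in CBE1mut and 3588 ± 309 in WT. Ighv2-2, a functional member of the Ighv2 (Q52) family 15337 bp beyond Ighv5-1, held 6913 ± 400 in CBE12mut, 7166 ± 547 in CBE1mut and 2013 ± 226 in WT. In CBE12mut Ighv5-1 thus came near Ighv2-2, while in WT libraries it was far below it. From CBE1mut as the baseline, CBE12mut was higher by 1.44 on the log2 scale for Ighv5-1 and by 0.45 for Ighv5-2 (adjusted p = 1.7e-07), and the changes of Ighv2-2 (-0.06, adjusted p = 0.543) and Ighv5-4 (0.03, adjusted p = 0.85) did not pass. With library sizes set by median of ratios, the same 4 changes were 2.40, 1.42, 0.91 and 0.99, and each was called higher (adjusted p at most 0.00276). Of all 163 segments 11 were called higher and 2 lower under that scaling, beside 4 and 92 with all junctions as library size. Ighv5-1 had the highest value of the 4 under both scalings.

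Of the 10 V segments nearest to D, all of which were tested, 3 rose and 6 fell in CBE12mut against WT (median log2 change -0.99, beside -2.05 over all 163 segments), and 3 rose and 4 fell in CBE1mut. Over all segments 4.29% rose and 89.6% fell in CBE12mut, and 2.45% rose and 63.8% fell in CBE1mut. In CBE1inv 3 of the 10 rose and 3 fell, beside 3.07% and 6.75% of all segments. In CBE2mut 8 rose and 0 fell (median 1.08, beside -0.35 over all), where 5.52% and 6.75% of all segments did. In CBE2inv 3 rose and 0 fell, beside 2.45% and 3.68%, and Ighv5-1 was not among the 3. Under median-of-ratios scaling 5 of the 10 rose and 0 fell in CBE12mut, 4 rose and 2 fell in CBE1mut, and 0 rose in CBE2inv. Of all 163 segments 12 rose and 5 fell in CBE12mut under that scaling, 7 and 2 in CBE1mut, and 1 and 3 in CBE2inv. The 3 that rose in CBE12mut, CBE1mut and CBE1inv were Ighv5-1, Ighv5-2 and Ighv2-2. In CBE2mut the segments that rose included Ighv5-4 by 1.22 on the log2 scale (adjusted p = 5.21e-09), Ighv2-3 by 0.86 and Ighv5-6 by 0.84.

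**Figure D4:**
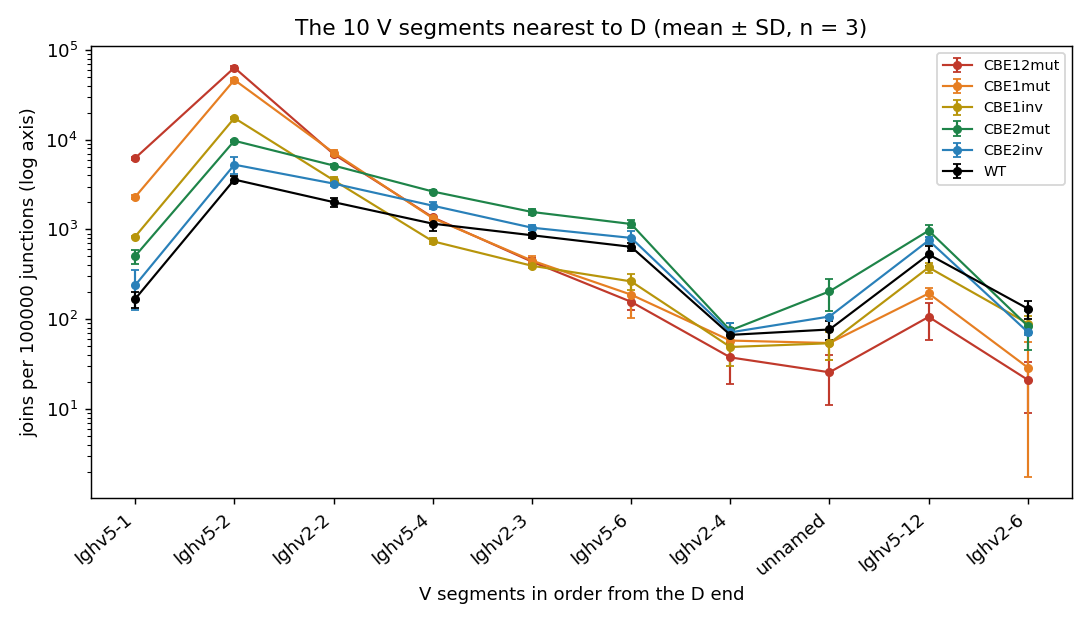
Joins per 100000 junctions (log axis, mean ± SD of 3 libraries) for the 10 V segments closest to D, in their order from D, for the 6 genotypes. The lines of the genotypes are widest apart at Ighv5-1 and Ighv5-2 and cross further out, where CBE12mut falls below WT beyond Ighv5-4.

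The family and the other pseudogenes were counted in the same way. Of 19 tested members of the Ighv5 family, 2 rose (Ighv5-1 and Ighv5-2) and 16 fell in CBE12mut against WT (median log2 change -1.68), near the 89.6% of all segments that fell (median -2.05). Under median-of-ratios scaling 3 rose and 0 fell, beside 12 and 5 of all 163 segments. Of 5 named V pseudogenes, 4 were tested, and in CBE12mut Ighv5-1 rose and the other 3 fell, again beside 89.6% of all segments. Under median-of-ratios scaling Ighv5-1 rose and 0 of the 4 fell, where 5 of all 163 segments fell. Ighv7-1, the pseudogene with the most joins after it, held 195 ± 27.0 joins per 100000 in CBE12mut and 628 ± 116 in WT (log2 -1.67, adjusted p = 2.22e-08), so that in WT it was joined more often than Ighv5-1. Ighv7-3 held 141 ± 42.7 and 406 ± 27.0, and Ighv1-13 held 4.46 ± 1.42 and 37.7 ± 6.56 in the same 2 genotypes. Ighv1-30 stayed under the filter on low counts.

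Over the 6 group means of log2(joins per 100000 + 1), the pattern most like that of Ighv5-1 among 162 segments was that of a D segment closest in sequence to Ighd3-1, at 114784064 on the target between Ighd1-1 and the V segments (Pearson r = 0.99). CBE12mut held 341 of its joins per 100000 junctions, CBE1mut 86.4, CBE1inv 22.5, CBE2mut 9.34, CBE2inv 3.38 and WT 3.77. Libraries of CBE2mut, CBE2inv and WT averaged 28038, 26449 and 75812 junctions, so its levels there rest on few reads and lie near the floor. It passed the filter on low counts through the genotypes where it was high. Ighv5-2 (r = 0.99) and Ighv2-2 (0.87) were next, followed by D segments at 114713223 (0.73) and 114708573 (0.70). The means share libraries and a common depth, and with 6 points r is a description only. Between CBE12mut and WT Ighd1-1 went the other way, with 312 ± 68.5 joins per 100000 in CBE12mut and 14047 ± 1187 in WT. CBE1mut held 5811, CBE1inv 9069, CBE2mut 6351 and CBE2inv 5024, so the order over the 6 genotypes was not the reverse of that of Ighv5-1.

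The joins themselves were read next, to see whether the pseudogene was joined like Ighv5-2. Within 18 libraries the share of joins in deletional orientation, the normal one for a V join, averaged 99.9% ± 0.176 for Ighv5-1 and 99.5% ± 0.2496 for Ighv5-2 (SD). The difference of 0.352 percentage points was positive in 16 and negative in 0 libraries (sign-flip permutation test, 100000 draws, adjusted p = 0.00036 over 6 features). In WT, CBE2mut and CBE2inv libraries all of the 19 to 222 Ighv5-1 joins were deletional, too few to show a rate like that of Ighv5-2. The difference could not be negative in these libraries, so their low counts enter the sign count and the p-value over 18 libraries. In the 9 libraries of CBE12mut, CBE1mut and CBE1inv alone, a choice made after the data were seen, the difference was 0.375 points and positive in 9 (exact sign-flip test, adjusted p = 0.0117). The 63 inverted Ighv5-1 joins were found in CBE12mut, CBE1mut and CBE1inv libraries. CBE12mut libraries held 23, 11 and 15 of them, and WT libraries held 0 of 372 joins. These WT joins are reads that repeat, from 44, 43 and 41 distinct outcomes in the 3 libraries, so they set no close limit on the WT share.

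Of the other 5 features tested, none passed over all 18 libraries. The median number of bases missing from the V end was 1 in 17 libraries for Ighv5-1 and in all 18 for Ighv5-2. A whole V end was found in 33.7% of deletional Ighv5-1 joins and 37.5% of Ighv5-2 joins, with the lower share for Ighv5-1 in 15 of 18 libraries, and this was not tested. A median of 17.5 ± 1.31 bases lay between V and JH4 for Ighv5-1 and 17.1 ± 0.323 for Ighv5-2 (adjusted p = 0.596). A D segment was readable, by a run of at least 8 bases that matched 1 D group, in 67.4% ± 7.72 and 66.3% ± 2.02 (adjusted p = 0.841). WT, CBE2mut and CBE2inv libraries held 19 to 222 Ighv5-1 joins each.

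Joins in the reading frame of JH4 made up 31.6% ± 6.86 for Ighv5-1 and 27.8% ± 1.96 for Ighv5-2. Ighv5-1 was higher in 14 of 18 libraries, but the difference of 3.75 points did not pass (adjusted p = 0.183). With distinct outcomes the difference was 3.03 points (sign-flip test, adjusted p = 0.2495). In the 12 libraries of the run that held WT it was 2.93 points (exact sign-flip test, adjusted p = 0.369). Neither of these passed. WT replicate 3 was at 16.0%, and without that library the difference was 4.86 points (adjusted p = 0.0152). In the 9 libraries of CBE12mut, CBE1mut and CBE1inv alone it was 3.98 points and positive in 9 (exact sign-flip test, adjusted p = 0.0117). In CBE12mut, which held most of the joins, 30.9%, 31.6% and 33.9% of Ighv5-1 joins were in frame, against 25.8%, 27.0% and 27.1% of Ighv5-2 joins.

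The D segments inside Ighv5-1 joins were mostly of the Ighd2 (DSP2) family, which made up 78.7% ± 0.979 of joins with a readable D in CBE12mut and 79.2% ± 4.19 in WT. Ighd1-1 made up 2.49%, 2.35% and 2.85% in CBE12mut libraries, against 11.8%, 14.6% and 8.70% in WT libraries. CBE1mut averaged 7.26% ± 0.685, CBE1inv 3.10% ± 1.44, CBE2mut 3.00% ± 4.33 and CBE2inv 11.7% ± 14.2. CBE12mut, CBE1mut, CBE1inv and CBE2mut libraries lay below WT without overlap (exact two-sided permutation p = 0.1 each, the smallest that 3 against 3 libraries allow, adjusted p = 0.6 over 30 feature comparisons). With distinct outcomes this p was 0.1 for CBE12mut, 0.4 for CBE1mut and 0.2 for CBE1inv and CBE2mut. Ighv5-2 joins carried 2.58% ± 0.109 Ighd1-1 in CBE12mut and 9.63% ± 0.918 in WT, and the share did not differ past the threshold between the 2 V segments within libraries (0.376 points, adjusted p = 0.997). In the 9 libraries of CBE12mut, CBE1mut and CBE1inv alone the difference was -1.95 points, with the lower share for Ighv5-1 in 8 of 9 libraries (exact sign-flip test, adjusted p = 0.0313).

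**Figure D5:**
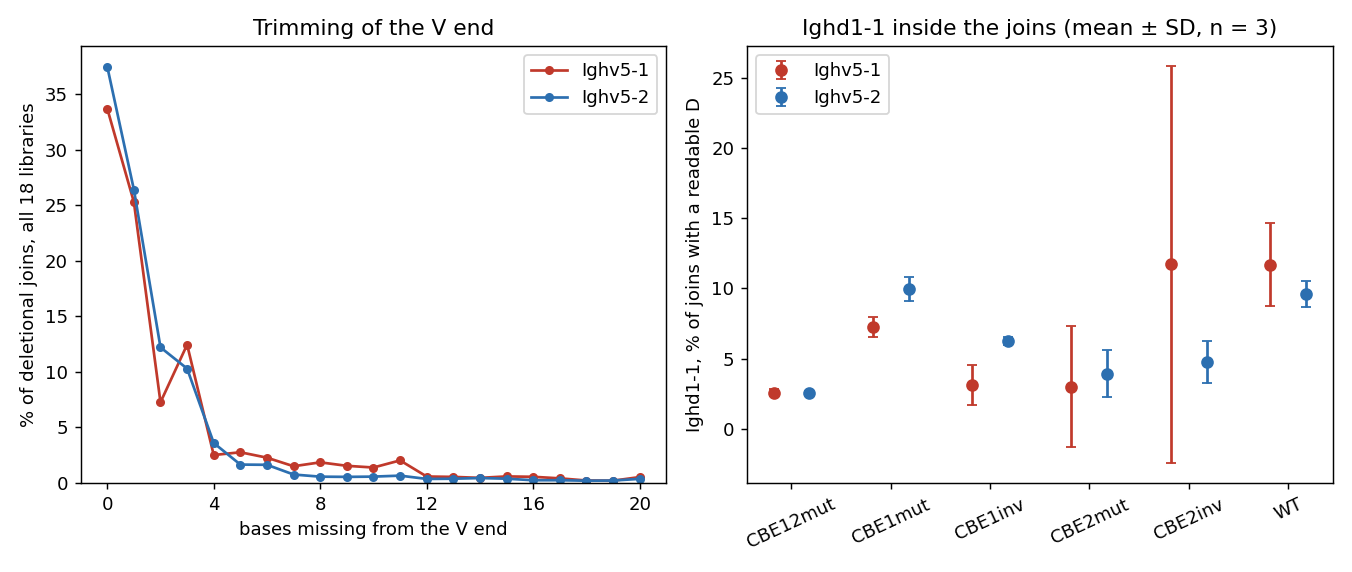
Bases missing from the V end, as a percentage of deletional joins of all 18 libraries (left), and Ighd1-1 as a percentage of joins with a readable D by genotype, mean ± SD of 3 libraries (right), for Ighv5-1 (red) and Ighv5-2 (blue). Both trimming curves peak at 0 bases (33.7% and 37.5%), and Ighd1-1 is at 2.56% in CBE12mut and 11.7% in WT for Ighv5-1.

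The most frequent Ighv5-1 join of CBE12mut and that of WT are shown to give the form of the product, from the V codon tgt to the JH4 codon tgg, with the bases between V and JH4 in capitals. The first was read 44 times in 1 library, kept the whole V end, had 17 bases between V and JH4 and was in frame over 42 bases. The second was read 15 times in 1 library, had lost 9 bases of V and was out of frame over 35 bases.
Ighv5-1 join in CBE12mut: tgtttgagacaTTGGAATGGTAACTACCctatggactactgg
Ighv5-1 join in WT: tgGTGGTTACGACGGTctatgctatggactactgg

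A second cell system gave levels on another target. A C57BL/6 pro-B line transformed by v-Abl, RAG1-/- with Emu-Bcl2, a single Igh and a WAPL degron, gave 12 libraries after RAG was returned by retrovirus and the cells were treated with STI-571. It was used as such (WT) or with the 3IghCBEs deletion (3CBEdel), untreated or with doxycycline and auxin (DoxIAA), which removes the cohesin-release factor WAPL. Here Ighv5-1 was read at its mm9 position, and values are not set against bone marrow levels by a test.

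Per 100 Ighv5-2 joins there were 10.9, 21.2 and 8.94 Ighv5-1 joins in WT DoxIAA libraries, against 4.62, 3.75 and 6.12 in WT untreated libraries. The treated values rest on 6, 22 and 11 Ighv5-1 joins, and the untreated ones on 51, 44 and 95. In 3CBEdel there were 1.49, 6.56 and 11.6 with DoxIAA, from 1, 4 and 5 joins, against 3.59, 6.76 and 3.33 untreated. As a share of V joins Ighv5-1 was at 0.609% ± 0.280 in WT DoxIAA and 2.21% ± 0.517 in WT untreated libraries, and at 0.368% ± 0.265 in 3CBEdel DoxIAA and 1.43% ± 0.564 in 3CBEdel untreated libraries (SD, n = 3 each). Treated libraries of both lines lay below untreated ones in this share, and the treated WT ratios lay above the untreated ones. Ighv5-2 made up a smaller part of junctions in treated WT libraries. DoxIAA libraries held 55, 104 and 123 Ighv5-2 joins among 21856, 31275 and 28946 junctions. Untreated libraries held 1103, 1174 and 1553 among 139267, 140765 and 175957. Among the same junctions V joins numbered 1571, 2385 and 2106 in DoxIAA and 2318, 2589 and 3475 in untreated WT libraries. V joins, the denominator of the share, thus made up a larger part of junctions in treated WT libraries. In 3CBEdel they numbered 1039, 1049 and 799 among 22105, 20791 and 13180 junctions with DoxIAA. Untreated 3CBEdel libraries held 2281, 2114 and 1490 among 127085, 131524 and 82947. Ighv5-1 joins per 100000 junctions overlapped between WT libraries, with 27.5, 70.3 and 38.0 in DoxIAA and 36.6, 31.3 and 54.0 untreated. They also overlapped between 3CBEdel libraries, with 4.52, 19.2 and 37.9 in DoxIAA and 20.5, 33.5 and 19.3 untreated. No test was run on these few joins.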

How the data were processed

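Per the submitters' processing notes the aligner was Bowtie2, whose version is not given in the sources used here. Per the labels the target was AJ851868/mm9 for bone marrow and mm9 for v-Abl libraries, and enzyme blocking was omitted. Per the file headers, each line of the deposited files is 1 read with its bait and prey positions, and levels were tabulated here from those lines. V and D segments were rebuilt from clusters of at least 50 joins and named with blastn 2.17.0 at 97% identity (21 V segments), by their mm9 position (58) or by order between named neighbours (7), and Ighv5-1 as the first V in RefSeq order. Junctions within 100 bp were assigned to them. Of 151 V segments 64 have no name.

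The fits took segments that reached 10 junctions in 3 or more of the 18 libraries, and used limma 3.58.1 in R 4.3.3, with all 6 genotypes in 1 fit, no block and Benjamini-Hochberg adjustment over all segments at 0.05. The fits were checked on simulated data. Permutation tests used scipy 1.17.1. Depth was 11105 to 98682 junctions per library. Deviations of same-numbered libraries correlated at r above 0.1 in 10 of 45 pairs (-0.21 to 0.34). WT and CBE2mut were the 1 comparison with all 3 pairs above it (0.218, 0.183 and 0.343), though they come from different runs.

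Ighv5-1, the lists and the comparisons were chosen with earlier results of these data known. Named were the next V segments, Ighd1-1, the 10 nearest V, other V pseudogenes and the 5 segments of most similar pattern. Alternatives were the window, distinct outcomes, own-segment reads, filter, scaling, pseudocount, replicate block, run and each library left out.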

Additional observations from a re-analysis of the deposited data

How the results depend on the processing

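The values of this paragraph are log2 changes of Ighv5-1 from the limma fits. Leaving out each library in turn gave level changes of 5.14 to 5.38 (CBE12mut against WT), 3.71 to 3.94 (CBE1mut), 2.24 to 2.48 (CBE1inv), 1.56 to 1.80 (CBE2mut) and 0.25 to 0.83 (CBE2inv, not called in any). CBE12mut against CBE1mut ran from 1.401 to 1.49, CBE1inv against CBE1mut from -1.50 to -1.41 and CBE2inv against CBE2mut from -1.41 to -0.83. This last level was -1.22 within its own run, where it was not called. Its share of V joins ran from -1.36 to -0.77, and that of CBE2inv against WT from -0.0445 to 0.545. The ratio to Ighv5-2 ran from 1.03 to 1.17 in CBE12mut against WT, from -0.0131 to 0.132 in CBE1inv, from -0.30 to 0.17 in CBE2inv and from -0.456 to 0.0132 in CBE2inv against CBE2mut. The uncalled CBE1inv ratio turned to -0.0152 with distinct outcomes and -0.001 with a pseudocount of 5. The CBE2inv ratio against CBE2mut was called with distinct outcomes (-0.39). The difference of both CBE2 effects on the ratio was 0.83 with distinct outcomes and 0.68 to 0.91 with a library left out. The 12-library within-run values of CBE12mut, CBE1mut and CBE1inv kept their calls. The replicate block changed no call of Ighv5-1 (5.24 in CBE12mut against WT, 1.66 in CBE2mut against WT, the pair of groups whose same-numbered libraries correlated).

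Counts of called segments depended on the scaling: median-of-ratios gave 17 in CBE12mut against WT, 9 in CBE1mut, 8 in CBE1inv, 4 in CBE2inv, 13 in CBE12mut against CBE1mut, 7 in CBE1inv against CBE1mut and 13 in CBE2inv against CBE2mut. With all junctions as library size they were 153, 108, 16, 10, 96, 77 and 6, and the directions for CBE12mut and CBE1mut stand in the report. Limma trend gave 9 in CBE1inv and 47 in CBE1inv against CBE1mut. CBE2inv against WT gave 4 with distinct outcomes and 5 with V plus D joins as library size, and CBE2inv against CBE2mut gave 3 within its run. With a library left out the counts ran from 10 to 19 (CBE1inv), 12 to 34 (CBE2mut), 5 to 10 (CBE2inv) and 2 to 35 (CBE2inv against CBE2mut). Of the join features against Ighv5-2, in percentage points or bases, uncalled differences changed sign: readable D to -0.91 (distinct) and -0.9999 (12 libraries), Ighd1-1 to -0.33 and -0.95, and bases between V and JH4 to -0.0833 (distinct). Left-out libraries gave -0.0117 to 1.94 points for readable D, -0.91 to 0.68 for Ighd1-1 and 2.85 to 4.86 for the share in frame. In the 9 libraries of CBE12mut, CBE1mut and CBE1inv alone, readable D was at -0.138, Ighd1-1 at -1.95 and the share in frame at 3.98 points, the last 2 called. The Ighd1-1 share of CBE2inv against WT turned to -4.95 points with distinct outcomes. The causes were not tested. WT, CBE2mut and CBE2inv libraries held 19 to 222 Ighv5-1 joins each, which limits the precision of their values.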
